A study of Homo sapiens with 36 samples.

Results

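LPS-stimulated THP-1 cells depleted of NR4A2 were compared at 10% CO2 and at 5% CO2. THP-1 is a line of human monocytic leukaemia cells, and the cells compared here carried a stably expressed short hairpin RNA against NR4A2 (shNR4A2). The members are the 6 libraries whose labels give shNR4A2, LPS and either CO2 level, 3 at each level, of 36 libraries in the series. In both groups the cells were kept for 4 h in pre-equilibrated, pH-buffered medium, and 2.5 µg/ml of LPS was present for the last 2 h, so that the groups differed by CO2 alone (10% in buffered hypercapnia, 5% in the control). The other libraries came from shNR4A2 cells without LPS and from cells with a non-target hairpin (shNT) or a hairpin against NR4A3 (shNR4A3), at the same CO2 levels. The study describes the replicates as 3 individual experiments, and the p-values measure the spread between them. Whether the shNR4A2 line is a pool of cells or 1 clone is not given in the sources used here.

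LPS, a component of the outer membrane of Gram-negative bacteria, is recognised on monocytes by TLR4 with its co-receptors, and the signal runs through MYD88 and NF-kB to cytokine and chemokine genes. NR4A1, NR4A2 and NR4A3 are orphan nuclear receptors whose genes are themselves switched on within the first hours of such a stimulus, and which can bind DNA as monomers. CO2 crosses membranes and, together with carbonic anhydrases and bicarbonate transporters, sets the acid-base state of the cell. Hypercapnia, a raised CO2 level, is known to alter innate immune signalling, and the comparison asks which transcripts responded to it in inflamed monocytes when NR4A2 was low.

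NR4A2 was measured first as a check of the labels. In the shNR4A2 libraries with LPS, NR4A2 stood at 25.9, 31.99 and 18.2 CPM (counts relative to library size, scaled by TMM) at 5% CO2 and at 17.9, 19.9 and 19.5 CPM at 10% CO2. In shNT cells with LPS, NR4A2 reached 72.8, 84.5 and 61.7 CPM at 5% CO2 and 56.4, 63.4 and 62.0 CPM at 10% CO2. Every shNR4A2 library lay below every shNT library, and NR4A2 was 3.03-fold lower over both CO2 levels (log2 fold change -1.60, SE 0.12, 12 libraries, adjusted p = 3.42e-07, edgeR). The depletion was partial, and NR4A2 was still present in each library.

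The 6 libraries held 17361839 to 21028486 counts, with a median of 19556353. Markers of monocytes and myeloid cells were present in each. Summed over 12 genes, with ITGB2 and SPI1 the most counted, they made 2679 to 3397 CPM at 5% CO2 and 2638 to 3021 CPM at 10% CO2. At the 2 levels CD14 averaged 18.5 and 15.2 CPM, and CD68 was low, at 2.25 and 2.27 CPM. Of the 12, 0 were called, against 0.198% of all genes tested, and CSF1R was lower at an unadjusted edgeR p of 0.0191. Of the defining markers of other cell types, the haemoglobin genes HBB, HBA1 and HBA2 had no count, and the T cell genes CD3D, CD3E and CD3G were too low to be tested. Summed marker levels were 9.84 to 14.7 CPM at 5% CO2 and 10.7 to 15.97 CPM at 10% CO2 for T and NK cells (mostly NKG7), 9.01 to 15.8 and 8.11 to 14.3 CPM for B cells, and 436 to 557 and 357 to 477 CPM for stromal, epithelial and endothelial cells, mostly PECAM1, which monocytes also express. The libraries of a group were not alike. On the first principal component of the 500 most variable genes, which carried 37.3% of the variance, 5% CO2 replicates 1 and 2 lay at -13.5 and -19.7 and the 10% CO2 libraries at 4.72, 12.8 and 13.0, while 5% CO2 replicate 3 lay at 2.67, on the side of the hypercapnic libraries. On the second component (26.1% of the variance) 10% CO2 replicate 1 lay alone at 20.9, with the others between -13.2 and 1.13. Over all genes tested, however, the second component (23.9%) set both libraries numbered replicate 1 apart. They lay at 23.5 (5% CO2) and 37.7 (10% CO2), with the others between -21.0 and -9.54. By the median absolute log2 deviation from the other replicates of its group, 5% CO2 replicate 2 was the farthest off, at 0.231, against 0.144 to 0.206 for the other libraries. Replicate 3 at 5% CO2 is named below where a value rests on it. Values given without it come from the only left-out library that raised the number of genes called by edgeR, from 35 to 1122. It was the control library nearest to the hypercapnic ones on the first component, so leaving it out tends to widen the difference. A smaller p without it is therefore not added support.

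Of 17720 genes tested, 35 (0.198%) were called at an adjusted p under 0.05, 27 higher (0.152%) and 8 lower (0.0451%) in buffered hypercapnia. Adjusted p values of the called genes ran from 0.0281 to 0.0449, and log2 fold changes from 0.57 to 1.61 in size. At an unadjusted p under 0.05, 1379 genes (7.78%) were higher and 1518 (8.57%) lower. In each of the 35 genes the 3 libraries at 10% CO2 did not overlap the 3 at 5%, which held for 21.4% of all genes tested. The number called rested on single libraries: leaving out replicate 3 at 5% CO2 raised it to 1122, while 18 genes were called when replicate 2 of that group was left out. With replicate 1 at 5% CO2, or any of the 3 libraries at 10% CO2, left out, edgeR called 0 genes, and 1821 to 2589 still had an unadjusted p under 0.05. DESeq2, the other test run, called 600 genes (1.49% of 40381) and, with any of the 6 libraries left out, still called each of the 35. A single fit to all 36 libraries called 5.69% of the genes (2.51% higher and 3.19% lower), again with each of the 35. That fit still called 17 of the 35 without 5% CO2 replicate 2 and 28 to 35 of them without any other of the 6 libraries, and 11 of the 35 were among the 18 genes that edgeR called without 5% CO2 replicate 2.

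**Figure D1:**
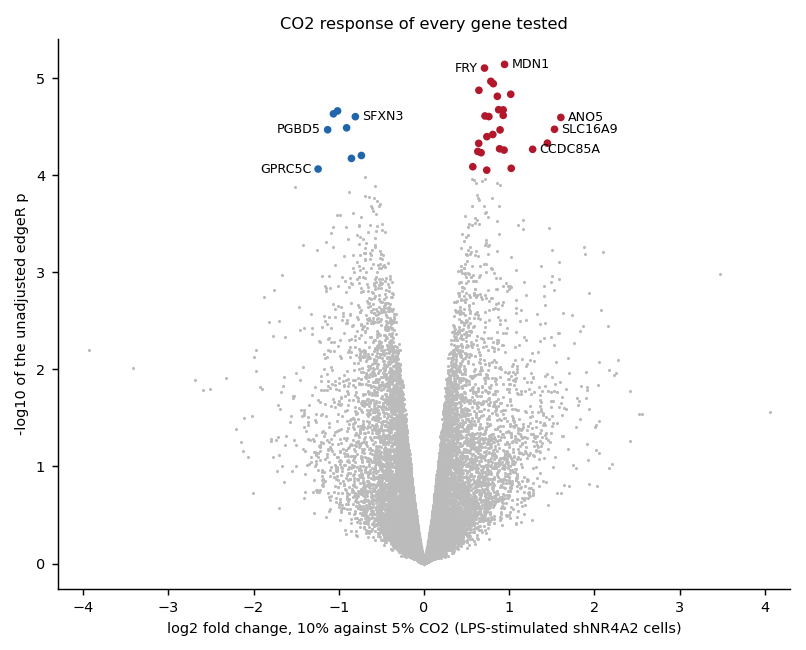
Each point is 1 of 17720 genes; the x axis gives the log2 fold change of 10% against 5% CO2 in LPS-stimulated shNR4A2 cells and the y axis -log10 of the unadjusted edgeR p. The 27 genes called higher (red) and the 8 called lower (blue) lie at log2 fold changes of 0.57 to 1.61 in size, and ANO5 is the farthest right among them.

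The RefSeq promoters (250 bases before to 50 after the start, GRCh38.p14) of 3 genes are shown as examples of the letters searched for. MDN1 (chr6:89819745-89820044, minus strand) had the smallest p of all genes, POLR1A (chr2:86105837-86106136, minus strand) is the only called gene higher at 10% CO2 with a heat shock element pair, and DNAJA1 (chr9:33025023-33025322, plus strand) is a heat shock gene with 2 such pairs. Capitals mark the matches: CACGTG (E-box) and TGACGTCA (cyclic AMP response element) in MDN1, GAANNTTC (heat shock element pair) in POLR1A and DNAJA1, and the reverse complement of CCGGAAGT (ETS) in DNAJA1.
MDN1: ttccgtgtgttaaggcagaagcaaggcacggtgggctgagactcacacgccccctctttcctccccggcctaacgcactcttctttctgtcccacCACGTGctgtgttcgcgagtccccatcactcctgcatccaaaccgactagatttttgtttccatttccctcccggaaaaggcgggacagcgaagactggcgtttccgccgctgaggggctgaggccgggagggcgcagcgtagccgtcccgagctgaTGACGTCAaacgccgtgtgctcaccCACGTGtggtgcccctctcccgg
POLR1A: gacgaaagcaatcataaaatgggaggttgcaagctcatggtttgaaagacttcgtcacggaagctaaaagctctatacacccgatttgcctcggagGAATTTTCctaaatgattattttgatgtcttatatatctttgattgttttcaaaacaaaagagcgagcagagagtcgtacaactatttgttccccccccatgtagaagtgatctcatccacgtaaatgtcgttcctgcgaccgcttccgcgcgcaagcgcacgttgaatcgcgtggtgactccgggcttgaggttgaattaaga
DNAJA1: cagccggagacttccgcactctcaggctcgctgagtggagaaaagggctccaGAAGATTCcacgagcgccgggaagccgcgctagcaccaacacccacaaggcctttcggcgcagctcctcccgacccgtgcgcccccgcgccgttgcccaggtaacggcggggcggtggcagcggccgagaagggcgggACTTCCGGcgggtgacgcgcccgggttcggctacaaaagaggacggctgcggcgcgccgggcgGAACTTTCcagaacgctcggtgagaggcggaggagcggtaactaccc

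Both strands were searched, and the matches within each of these promoters do not overlap. Of the 27 genes called higher 21 had a promoter in the table, as had 4 of the 8 called lower and 12082 of the genes tested. The heat shock element pair stood in 1 of the 21 (4.76%), against 4.78% of the tested genes with a promoter, and the E-box in 4 of the 21 (MDN1, REPIN1, SIK3 and SLC16A9), against 9.75%. AAAGGTCA, the element that an NR4A monomer binds, was in 0 of the 21 and 0 of the 4, against 0.778% of the tested genes. A match is a description of the letters and not evidence of binding.

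Genes of ribosome assembly stood among those with the smallest p. MDN1, an ATPase that remodels the large ribosomal subunit before its export, was at 73.0, 105 and 93.8 CPM at 5% CO2 and at 186, 170.2 and 167 CPM at 10% CO2 (1.93-fold higher, log2 fold change 0.94, SE 0.13, adjusted p = 0.0281). URB1, another factor of the early large subunit, was at 38.5, 45.0 and 48.0 CPM and rose to 75.4, 80.3 and 71.1 CPM (log2 fold change 0.78, SE 0.11, adjusted p = 0.0281). POLR1A, the largest subunit of RNA polymerase I, which transcribes ribosomal RNA, rose from 53.0, 61.2 and 71.8 CPM to 110.1, 106 and 99.9 CPM (log2 fold change 0.76, SE 0.11, adjusted p = 0.0281). In these 3 genes the lowest library at 10% CO2 lay well above the highest at 5%. MRAP shares exon bases with URB1 on the opposite strand, as MDN1-AS1 does with MDN1, and since the strand setting of the counting is not given, reads of such pairs cannot be told apart.

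A list of 78 genes of RNA polymerase I and ribosome biogenesis had mostly higher estimates. POLR1A was called, 24 members were higher and 1 lower at an unadjusted p under 0.05 (30.8% and 1.28%, against 7.78% and 8.57% of all genes), and the median log2 fold change was 0.15, against -0.0016 over all genes tested. UTP20, a scaffold of the small-subunit processome, stood at 35.2, 30.9 and 33.6 CPM at 5% CO2 and 49.8, 50.2 and 43.6 CPM at 10% CO2 (log2 fold change 0.52, adjusted p = 0.0692). The member lower at 10% CO2 was UBTF, a factor that bends ribosomal DNA for RNA polymerase I, with 209, 241 and 172 CPM at 5% CO2 and 144, 119 and 137 CPM at 10% CO2 (log2 fold change -0.64, SE 0.13, adjusted p = 0.0692). Its groups did not overlap, as those of 32 higher members did not, a separation that 10.8% of all genes tested showed upwards and 10.6% downwards. Of the cytosolic ribosomal proteins 0 of 85 had an unadjusted p under 0.05 and the median was -0.036, and of the mitochondrial ribosomal proteins 3 of 78 were higher and 1 lower (median 0.033).

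Heat shock proteins and their partners had higher estimates as well, with a wide spread at 5% CO2. DNAJA4, a J-domain partner of HSP70, was the called member of these lists: it rose from 35.6, 32.1 and 48.2 CPM to 75.3, 75.3 and 70.5 CPM (1.90-fold, log2 fold change 0.93, SE 0.14, adjusted p = 0.0281), and 2 other genes share exon bases with it on the opposite strand. HSPH1, the nucleotide exchange factor HSP110, had the largest estimate of the list of 21 HSP70, HSP90, HSP110 and small heat shock proteins, at 139, 102 and 264 CPM and then 397, 409.7 and 335 CPM (log2 fold change 1.17, SE 0.34, adjusted p = 0.184). Here 5% CO2 replicate 3 lay between the other 2 control libraries and the hypercapnic ones, and without it the log2 fold change was 1.66 (adjusted p = 0.00188). The list held 7 members higher and 0 lower at an unadjusted p under 0.05 (33.3% and 0%). Its median was 0.22, or 0.14 without 5% CO2 replicate 3. In the list 0 were called by edgeR and 4 by DESeq2, against 0.198% and 1.49% of all genes in these tests. It holds proteins of several compartments: of the 7 higher members HSPD1 and HSPE1 form the mitochondrial chaperonin, while HSPH1, HSPA4L, HSP90AA1, HSPA1A and HSPA8 are cytosolic.

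Partners of these chaperones were also higher by estimate. CHORDC1, an HSP90 co-chaperone, stood at 24.8, 18.5 and 39.7 CPM at 5% CO2 and 60.4, 62.4 and 53.4 CPM at 10% CO2 (log2 fold change 1.08, SE 0.25, adjusted p = 0.109). With 1 library left out its adjusted p in edgeR ran from 0.00188, without 5% CO2 replicate 3, to 0.359. AHSA1, the activator of the HSP90 ATPase, had 85.8, 72.5 and 104 CPM and then 137, 136 and 129.9 CPM (log2 fold change 0.62, SE 0.12, adjusted p = 0.0692). DNAJA1, whose promoter is shown above, had 460.1, 321 and 577 CPM and then 762, 692 and 597 CPM (log2 fold change 0.59, SE 0.19, adjusted p = 0.18). Of 37 J-domain proteins and other co-chaperones 10 were higher and 1 lower at an unadjusted p under 0.05 (27% and 2.7%, median 0.16). HSPA1A is nearly identical to HSPA1B, and its counts (17.7, 10.7 and 20.9 CPM, then 24.3, 39.1 and 27.3 CPM) are uncertain for that reason.

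TRiC, the ring-shaped chaperonin that folds actin and tubulin, had 6 of its 8 subunits higher and 0 lower at an unadjusted p under 0.05, with a median of 0.25. Its subunit CCT3 was at 494, 442 and 518 CPM at 5% CO2 and at 662, 666 and 608 CPM at 10% CO2 (log2 fold change 0.41, SE 0.10, adjusted p = 0.0977). Of 23 folding and stress genes of the endoplasmic reticulum, 6 of which also stand in the 2 chaperone lists, 1 was higher and 0 lower (4.35% and 0%), and the median was -0.018. That member was SERPINH1, a collagen chaperone (35.1, 38.8 and 58.9 CPM, then 66.8, 69.7 and 72.8 CPM, log2 fold change 0.65, adjusted p = 0.115). The heat shock element pair GAANNTTC stood in the promoters of 6 of the 20 heat shock proteins with a promoter in the table (30%). They were HSPA1A, HSPA8, HSPA1B, HSPA1L, HSPA6 and HSPB1, and only HSPA1A and HSPA8 were among the 7 higher members. The E-box stood in 21 of 67 ribosome biogenesis genes (31.3%) and also in 5 of 27 sterol genes (18.5%), most of which had lower estimates. ETS letters stood in 15 of the 67 (22.4%), against 8.10% of the tested genes.

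**Figure D2:**
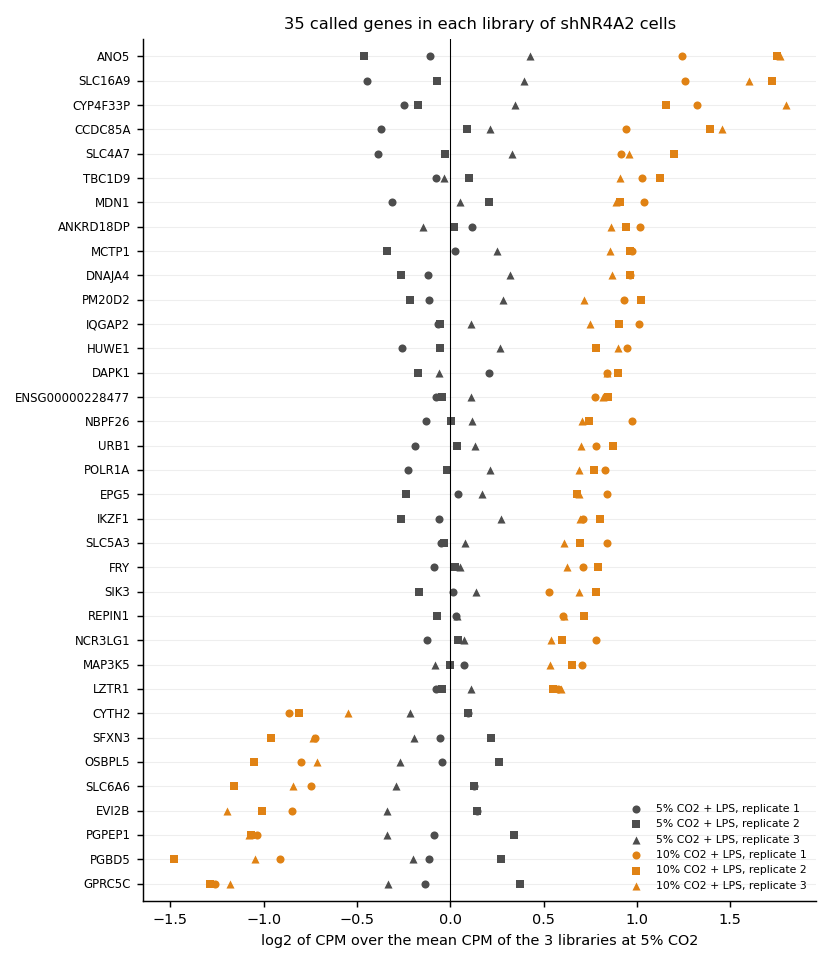
For each of the 35 called genes the x axis gives the log2 of a library's CPM over the mean CPM of the 3 libraries at 5% CO2; grey symbols are the libraries at 5% CO2 + LPS and orange symbols those at 10% CO2 + LPS, with circles, squares and triangles for replicates 1, 2 and 3. The orange and grey symbols do not overlap in any of the 35 genes, and in DNAJA4 and POLR1A the grey triangle of replicate 3 lies nearest to the orange symbols.

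Proteins of degradation and autophagy were also among the called genes. HUWE1, a HECT-type ubiquitin ligase, rose from 268, 309 and 385 CPM to 618, 551 and 598 CPM (1.83-fold, log2 fold change 0.88, SE 0.13, adjusted p = 0.0281). EPG5, which tethers autophagosomes to lysosomes, rose from 36.9, 30.5 and 40.4 CPM to 64.4, 57.6 and 58.1 CPM (log2 fold change 0.74, SE 0.12, adjusted p = 0.0323). LZTR1, an adaptor through which RAS proteins are ubiquitinated, had the smallest change of the 35, from 36.2, 37.2 and 41.4 CPM to 57.1, 56.0 and 57.8 CPM (log2 fold change 0.57, SE 0.10, adjusted p = 0.0449). Of the lysosomal genes, 2 were higher and 0 lower of 42 at an unadjusted p under 0.05, with a median of 0.0014, whose sign turned when libraries were scaled by their totals alone.

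Transporters moved in both directions. SLC4A7, which brings sodium and bicarbonate into the cell, rose from 7.34, 9.40 and 12.05 CPM to 18.1, 22.1 and 18.6 CPM (2.03-fold, log2 fold change 1.02, SE 0.18, adjusted p = 0.0449). It was the only called member of 29 carbonic anhydrases, bicarbonate transporters and proton handling genes, of which 2 were higher and 3 lower at an unadjusted p under 0.05 (6.9% and 10.3%). CA5B, a mitochondrial carbonic anhydrase, and HVCN1, a voltage-gated proton channel, were 2 of the lower members, with log2 fold changes of -0.87 (SE 0.23) and -0.35 (SE 0.12) and adjusted p of 0.111 and 0.186. SLC16A9, a carrier of the monocarboxylate family, stood at 1.87, 2.43 and 3.34 CPM at 5% CO2 and 6.10, 8.42 and 7.74 CPM at 10% CO2 (2.89-fold higher, adjusted p = 0.0302). SLC5A3, the sodium/myo-inositol cotransporter, rose from 22.0, 22.2 and 24.0 CPM to 40.7, 36.8 and 34.7 CPM (log2 fold change 0.72, SE 0.11, adjusted p = 0.0281), with exon bases that it shares with MRPS6 on the same strand.

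The carriers that fell were SLC6A6 and SFXN3. SLC6A6, the taurine transporter, fell from 84.4, 84.2 and 63.1 CPM to 46.0, 34.6 and 43.0 CPM (1.88-fold lower, log2 fold change -0.91, SE 0.14, adjusted p = 0.0302). SFXN3, a carrier of serine into mitochondria, fell from 102, 123 and 92.3 CPM to 64.0, 54.3 and 63.5 CPM (1.75-fold lower, log2 fold change -0.81, SE 0.12, adjusted p = 0.0281). In both genes 5% CO2 replicate 3 was again the control library nearest to the hypercapnic ones. Of the zinc transporters and metallothioneins 8 of 25 were higher and 0 lower at an unadjusted p under 0.05 (32% and 0%, median 0.19). The importers SLC39A14 and SLC39A8 were 2 of the 8. SLC39A14 stood at 80.9, 78.5 and 83.3 CPM and then 129.8, 119 and 100.3 CPM (adjusted p = 0.0692). SLC39A8 stood at 134, 90.5 and 183 CPM and then 254, 249.3 and 218 CPM (adjusted p = 0.149).

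Kinases and regulators of small GTPases made up a further share of the called genes. DAPK1, a calmodulin-dependent death-associated kinase, rose from 19.5, 14.99 and 16.2 CPM to 30.2, 31.6 and 30.2 CPM (log2 fold change 0.86, SE 0.12, adjusted p = 0.0281). SIK3, a salt-inducible kinase that phosphorylates CREB coactivators, rose from 56.6, 49.8 and 61.5 CPM to 80.6, 96.1 and 90.4 CPM (log2 fold change 0.67, SE 0.11, adjusted p = 0.0358). MAP3K5, the stress-activated kinase ASK1, rose from 27.3, 25.9 and 24.5 CPM to 42.3, 40.7 and 37.5 CPM (log2 fold change 0.63, SE 0.10, adjusted p = 0.0358). The 3 kinases changed by amounts close to each other, between 1.55-fold and 1.82-fold.

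IQGAP2, a scaffold for CDC42 and RAC1, rose from 7.14, 7.18 and 8.07 CPM to 15.1, 14.0 and 12.5 CPM (log2 fold change 0.89, SE 0.14, adjusted p = 0.0358). TBC1D9, of a family of RAB GTPase-activating proteins, rose from 6.43, 7.28 and 6.64 CPM to 13.8, 14.8 and 12.7 CPM (log2 fold change 1.02, SE 0.15, adjusted p = 0.0281). CYTH2, an exchange factor for ARF GTPases, moved the other way, from 96.1, 96.0 and 77.3 CPM to 49.3, 51.2 and 61.4 CPM (1.66-fold lower, log2 fold change -0.74, SE 0.12, adjusted p = 0.037). These GTPase regulators therefore moved in both directions. MCTP1, a calcium-binding membrane protein, FRY, a scaffold of NDR kinases, and ANO5, of the TMEM16 family, were the other higher genes of membranes and scaffolds, with log2 fold changes of 0.93 (SE 0.14), 0.71 (SE 0.10) and 1.61 (SE 0.24), each at an adjusted p of 0.0281. FRY was the most highly counted of them, at 196, 212 and 217 CPM and then 342, 360.4 and 322 CPM. MCTP1 stood at 20.9, 16.3 and 24.4 CPM and then 40.3, 39.98 and 37.1 CPM. ANO5 was low, at 2.96, 2.32 and 4.3 CPM and then 7.56, 10.8 and 10.9 CPM.

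Genes of leukocyte identity and surface were called in both directions too. IKZF1, the lymphoid and myeloid transcription factor Ikaros, rose from 183, 158 and 229.7 CPM to 312, 332 and 308 CPM (1.67-fold, log2 fold change 0.74, SE 0.13, adjusted p = 0.0449). NCR3LG1, the ligand of the natural killer receptor NKp30, rose from 43.7, 49.0 and 50.2 CPM to 81.9, 72.2 and 69.2 CPM (log2 fold change 0.64, SE 0.10, adjusted p = 0.0347). EVI2B, a surface protein of granulocyte precursors, fell from 37.1, 37.1 and 26.5 CPM to 18.7, 16.7 and 14.6 CPM (2.02-fold lower, log2 fold change -1.02, SE 0.15, adjusted p = 0.0281). The list of 24 haematopoietic transcription factors to which IKZF1 belongs leaned the other way, with 2 higher and 7 lower at an unadjusted p under 0.05 (8.33% and 29.2%, median -0.25). FLI1, an ETS factor, was one of the lower members, at 122, 147 and 92.1 CPM and then 85.0, 71.8 and 73.6 CPM (log2 fold change -0.65, SE 0.15, adjusted p = 0.0949). The higher member beside IKZF1 was ETS1, so ETS factors of the list moved in both directions. ETS1 stood at 75.3, 85.5 and 108.8 CPM and then 121, 137 and 138 CPM (log2 fold change 0.55, SE 0.13). It was not called by edgeR.

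The remaining called genes were CCDC85A, PM20D2, REPIN1, NBPF26, ANKRD18DP, CYP4F33P and the pseudogene ENSG00000228477, which were higher, and PGPEP1, PGBD5, OSBPL5 and GPRC5C, which were lower, with log2 fold changes of 0.64 to 1.45 and of -0.85 to -1.24. By biotype 32 of the 35 were protein coding and 3 were pseudogenes. NBPF26 and the pseudogenes have near-identical copies, so that their counts are uncertain, and 14 of the 35 share exon bases with another gene, 11 of them with a gene on the opposite strand. The median length was 7556 bases for the genes called higher and 7762.5 for those called lower, against 4197 for all genes tested. Genes just outside the threshold, with adjusted p from 0.0508 to 0.0515, were BNIP3L, HTR7, PDCD11, NCBP1, PHLPP1, DST, RBM14, RXFP1, REEP4 and TMEM37.

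Mitochondrially encoded transcripts were higher in all 13 protein-coding genes by estimate. Of these 0 were called by edgeR and 6 by DESeq2, against 0.198% and 1.49% of all genes in these tests. At an unadjusted p under 0.05, 9 of 13 were higher and 0 lower (69.2% and 0%), and the median log2 fold change was 0.54, or 0.83 without 5% CO2 replicate 3. MT-CO1, the core subunit of cytochrome c oxidase, stood at 2941, 2592 and 4742 CPM at 5% CO2 and 7205, 4418 and 6291 CPM at 10% CO2 (log2 fold change 0.80, SE 0.25, adjusted p = 0.184, or 0.0109 without that library). MT-ND4, of complex I, stood at 1618, 1619 and 2863 CPM and then 4228, 2893 and 3636 CPM (log2 fold change 0.82, SE 0.24, adjusted p = 0.158). MT-CO1 overlapped between the groups, since 10% CO2 replicate 2 lay below 5% CO2 replicate 3, while MT-ND4 separated the groups narrowly. MT-ND3 differed by less than its error (log2 fold change 0.05, SE 0.12).

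The share of all counts from mitochondrially encoded genes was 1.36%, 1.38% and 2.19% at 5% CO2 and 2.88%, 2.05% and 2.59% at 10% CO2, and the difference of the means of 0.862 percentage points had a two-sided exact permutation p = 0.2, where 3 against 3 libraries can give no less than 0.1. Of 76 nuclear-encoded subunits of the respiratory complexes, 0 were higher and 2 lower at an unadjusted p under 0.05, and the median was -0.0016.

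**Figure D3:**
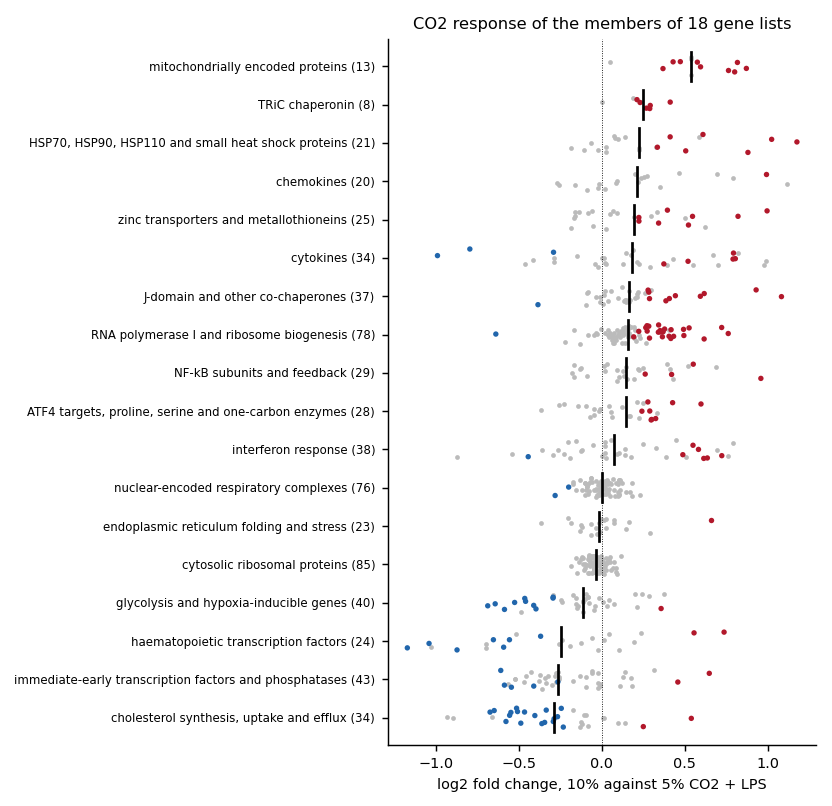
Each point is 1 gene of 18 lists (number of members tested in brackets); the x axis gives its log2 fold change of 10% against 5% CO2 with LPS, red and blue mark an unadjusted edgeR p under 0.05, and black bars are list medians. Mitochondrially encoded proteins have the highest median (0.54) and cholesterol genes the lowest (-0.29), while the 76 nuclear-encoded respiratory subunits and 85 cytosolic ribosomal proteins sit around 0.

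Genes of the LPS response leaned to higher levels in buffered hypercapnia. LPS raised 831 genes at least 2-fold in shNT cells at 5% CO2, libraries that do not enter the comparison described here, and in shNR4A2 cells with LPS 213 of these were higher and 23 lower at 10% CO2 at an unadjusted p under 0.05 (25.6% and 2.77%, against 7.78% and 8.57% of all genes), with a median log2 fold change of 0.29. Of the 831 genes 5 were called, against 0.198% of all genes tested, and all were higher (ANO5, CCDC85A, REPIN1, SLC16A9 and ENSG00000228477). Of 504 genes that LPS lowered in shNT cells, 13 were higher and 84 lower (2.58% and 16.7%, median -0.18). Without LPS the same lists had medians of -0.083 and -0.039 in shNR4A2 cells. With LPS they had 0.19 and -0.13 in shNR4A3 cells and 0.16 and -0.12 in shNT cells, so the lean was not particular to shNR4A2 cells. The shNT values share the libraries at 5% CO2 with LPS that chose the lists.

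Among cytokines, IL23A, the specific subunit of interleukin 23, had 443, 252 and 462 CPM at 5% CO2 and 746, 656 and 601 CPM at 10% CO2 (1.73-fold, log2 fold change 0.79, SE 0.21, adjusted p = 0.135). IL12B, the subunit that interleukins 12 and 23 share, had 90.3, 49.1 and 93.3 CPM and then 147, 138 and 119 CPM (log2 fold change 0.79, SE 0.23, adjusted p = 0.163). Both genes separated the groups, with 5% CO2 replicate 2 the lowest library, and without 5% CO2 replicate 3 the adjusted p was 0.0342 and 0.0521. Of 34 cytokines 5 were higher and 3 lower at an unadjusted p under 0.05 (14.7% and 8.82%, median 0.18), and TNF and IL1B differed by less than their errors, with log2 fold changes of -0.04 (SE 0.12) and 0.01 (SE 0.23). Of 20 chemokines only CXCL9, a ligand of CXCR3, passed an unadjusted p of 0.05, from 1.67, 0.897 and 2.28 CPM to 2.62, 2.72 and 4.24 CPM (adjusted p = 0.185).

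Of the genes between LPS and NF-kB 0 were called by edgeR. TLR4, the receptor itself, had 39.2, 36.4 and 26.6 CPM at 5% CO2 and 26.4, 18.6 and 19.96 CPM at 10% CO2 (1.58-fold lower, log2 fold change -0.66, SE 0.17, adjusted p = 0.109), while its adaptor MYD88 had 79.5, 61.2 and 79.2 CPM and then 106, 86.2 and 84.8 CPM (log2 fold change 0.33, SE 0.12, adjusted p = 0.22). In TLR4 the lowest control library, replicate 3, and the highest hypercapnic library nearly met. Of 29 NF-kB subunits and feedback genes 4 were higher and 0 lower at an unadjusted p under 0.05 (13.8% and 0%, median 0.14). Of all genes tested 7.78% were higher and 8.57% lower, together 16.3% and a larger share than in the list. The kinase MAP3K8, one of the 4, ranged from 77.4 to 237 CPM at 5% CO2 and from 278 to 312 CPM at 10% CO2 (log2 fold change 0.96, SE 0.38, adjusted p = 0.29). TRAF3, an adaptor of interferon and non-canonical NF-kB signalling, had 221, 155 and 246 CPM and then 339, 287 and 286 CPM (log2 fold change 0.55, SE 0.15, adjusted p = 0.127).

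NLRP3, the sensor of an inflammasome, was among the genes with lower estimates, at 135, 130.1 and 83.5 CPM and then 92.1, 61.8 and 64.0 CPM (log2 fold change -0.68, SE 0.21, adjusted p = 0.184), and its groups overlapped through 5% CO2 replicate 3. DPP8, a dipeptidyl peptidase that restrains inflammasome sensors, had 64.5, 73.7 and 51.5 CPM and then 45.4, 38.2 and 40.6 CPM without overlap (log2 fold change -0.61, SE 0.13, adjusted p = 0.0805). Of the interferon genes 6 of 38 were higher and 1 lower (15.8% and 2.63%, against 7.78% and 8.57% of all genes tested). Together they were near the 16.3% of all genes tested. The median of the interferon genes was 0.071, and it ran from -0.084 without 10% CO2 replicate 3 to 0.37 without 5% CO2 replicate 3. The guanylate-binding proteins GBP5 and GBP2 were 2 of the 6, with log2 fold changes of 0.72 (SE 0.16) and 0.58 (SE 0.14), and GBP4 was the lower member (-0.44, SE 0.14). Their adjusted p were 0.089, 0.0989 and 0.166.

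**Figure D4:**
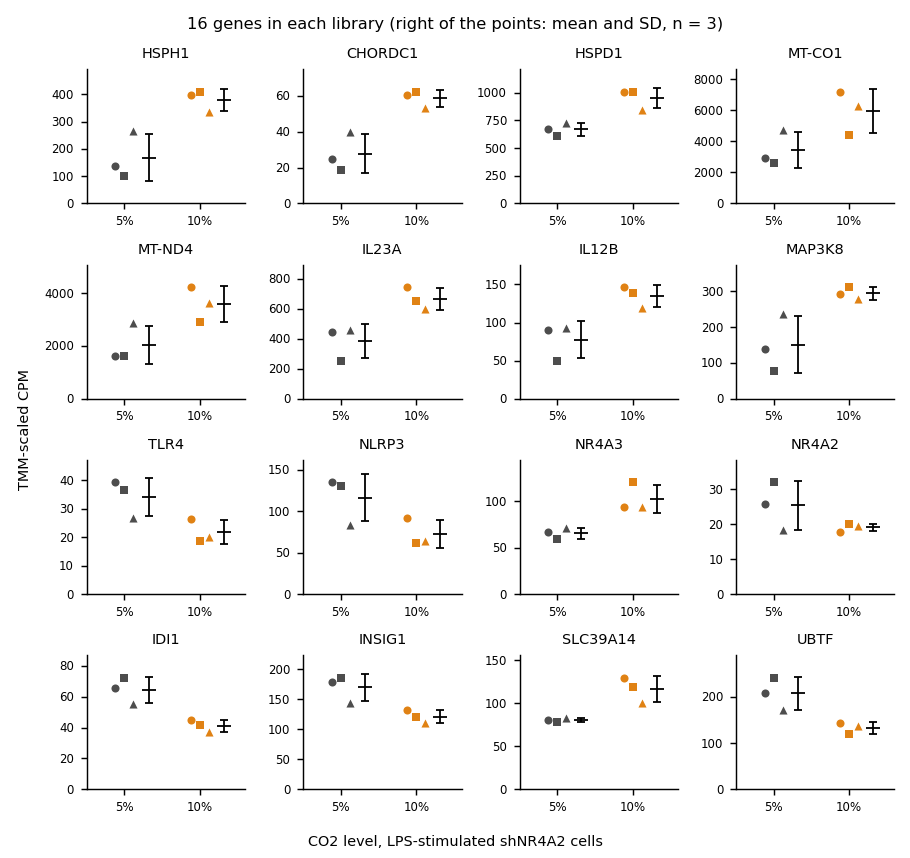
TMM-scaled CPM of 16 genes in the 3 libraries at 5% CO2 (grey) and the 3 at 10% CO2 (orange) of LPS-stimulated shNR4A2 cells, each axis starting at 0, with circles, squares and triangles for replicates 1, 2 and 3 and the mean with its SD to the right of the points. In HSPH1 (264 CPM), MAP3K8 (237 CPM) and NLRP3 (83.5 CPM) replicate 3 at 5% CO2 is the control library nearest to, or within the range of, the hypercapnic ones.

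None of the 3 NR4A genes was called by edgeR. NR4A3 had 66.3, 59.0 and 70.8 CPM at 5% CO2 and 93.4, 120.3 and 93.7 CPM at 10% CO2 (1.57-fold higher, log2 fold change 0.65, SE 0.12), and with an adjusted p of 0.0597 it lay just outside the threshold, while DESeq2 called it (adjusted p = 0.0011). The NR4A2 transcript left after depletion had a log2 fold change of -0.41 (SE 0.18, adjusted p = 0.288), its groups overlapping through 5% CO2 replicate 3. NR4A1, at 35.3, 35.7 and 29.4 CPM and then 27.7, 35.1 and 35.9 CPM, differed by less than its error (log2 fold change -0.03, SE 0.13). Per length, NR4A3 was the most abundant of the 3 at both CO2 levels, at 34.0 ± 1.86 and 51.6 ± 9.84 TPM (transcript level per length; SD, n = 3), against 21.2 ± 6.78 and 15.3 ± 1.69 TPM for NR4A2 and 15.1 ± 2.11 and 14.3 ± 2.67 TPM for NR4A1. NR4A2 and NR4A1 did not differ beyond their spread at either level. The wider list of 43 immediate-early genes had 2 higher and 5 lower members at an unadjusted p under 0.05 (4.65% and 11.6%) and a median of -0.27.

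Most sterol genes had lower estimates. Of 34 genes of cholesterol synthesis, uptake and efflux 18 were lower and 2 higher at an unadjusted p under 0.05 (52.9% and 5.88%, median -0.29). With all libraries 0 were called by edgeR, against 0.198% of all genes tested. Without 5% CO2 replicate 3, 12 of the 34 were called lower and 1 higher, against 573 lower and 549 higher of all 17720 genes tested. Nothing is read from those counts, since that library was the control nearest to the hypercapnic ones. With any 1 library left out, the list median ran from -0.34 to -0.25. IDI1, which isomerises isopentenyl diphosphate, had 65.7, 72.2 and 55.2 CPM and then 44.6, 41.8 and 37.0 CPM (1.57-fold lower, log2 fold change -0.65, SE 0.12, adjusted p = 0.0586). INSIG1, a sterol-regulated anchor of SREBP processing, had 178, 186 and 144 CPM and then 133, 121 and 110.0 CPM (log2 fold change -0.49, SE 0.12, adjusted p = 0.0926), and SQLE, squalene epoxidase, had a log2 fold change of -0.47 (SE 0.11, adjusted p = 0.089). The 2 higher members were SCAP, the escort of SREBP, with a log2 fold change of 0.25, and STARD4, a cholesterol carrier, which had 92.0, 77.2 and 95.6 CPM and then 119.8, 147 and 118 CPM (log2 fold change 0.54, SE 0.12, adjusted p = 0.0805).

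Hypoxia-inducible and glycolytic genes leaned the same way, with 10 of 40 lower and 1 higher (25% and 2.5%, median -0.11). BNIP3L, a mitophagy receptor, had 48.6, 49.2 and 40.8 CPM and then 30.9, 24.99 and 30.3 CPM (1.61-fold lower, adjusted p = 0.0508). ARNT and EPAS1, partners in the hypoxia-inducible factors, had log2 fold changes of -0.40 (SE 0.10) and -0.41 (SE 0.11), while HIF1A was the higher member, at 0.36 (SE 0.10), each with an adjusted p of 0.105 to 0.137. Genes of the cell cycle and DNA replication had 14 of 41 lower and 4 higher (34.1% and 9.76%, median -0.14), with AURKA, a mitotic kinase, at a log2 fold change of -0.55 (SE 0.15, adjusted p = 0.115) and CDK6, a kinase of G1 phase, at 0.52 (SE 0.12, adjusted p = 0.0932).

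The study names 23 genes for the CO2 response with LPS. Since they were chosen on these samples, their direction is not independent evidence. POLR1A and SLC16A9 were called higher and SLC6A6 and CYTH2 lower. Of the 23, 13 were higher and 9 lower at an unadjusted p under 0.05. The study names HSPH1 and HSPA4 as responding in shNT and shNR4A3 cells but not in shNR4A2 cells. With LPS, HSPH1 had log2 fold changes of 1.17 (SE 0.34) in shNR4A2 and 1.44 (SE 0.37) in shNT cells. HSPA4 had 0.14 (SE 0.10) and 0.27 (SE 0.07). Neither was called in shNR4A2 cells by edgeR or DESeq2. Their differences from shNT cells, -0.25 (SE 0.53) and -0.11 (SE 0.12), were within their errors, which does not show equal responses.

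The CO2 response of shNR4A2 cells was then set against that of the other lines and states. No gene was called in the test of the difference itself by edgeR, against shNT cells (458 of 17720 genes, 2.58%, at an unadjusted p under 0.05), against shNR4A3 cells (258 genes, 1.46%) or between LPS-stimulated and unstimulated shNR4A2 cells (904 genes, 5.1%). DESeq2 called 0, 0 and 13. A difference that misses the threshold does not show equal responses. The median size of the log2 fold change of the 35 called genes was 0.88 in shNR4A2 cells with LPS, the contrast that chose them, 0.76 in shNT and 0.67 in shNR4A3 cells with LPS, and 0.27 in shNR4A2 cells without LPS. Their direction was the same in 34 of 35 genes in shNT and in 35 of 35 in shNR4A3 cells with LPS, and in 26 of 35 in shNR4A2 cells without LPS. Of all genes tested, 8.19% were called in shNT and 2.13% in shNR4A3 cells with LPS, and 0.0113% in shNR4A2 cells without LPS. Of the 35 genes 28, 18 and 0 were called in these 3 comparisons.

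Genes called in shNT cells with LPS were also looked up in shNR4A2 cells. Of 792 genes called higher at 10% CO2 in shNT cells with LPS, in libraries that the shNR4A2 comparison does not share, 785 had a log2 fold change above 0 in shNR4A2 cells with LPS, against 49.7% of all genes tested, and 507 were higher and 0 lower at an unadjusted p under 0.05 (median 0.35). Of 660 called lower in shNT cells, 11 were above 0, and 461 were lower and 0 higher (median -0.39).

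Differences from shNT cells are given here for NR4A3 and for some of the 35 called genes, of which 4 had an unadjusted edgeR p under 0.05. CYP4F33P had a log2 fold change of 1.45 (SE 0.23) in shNR4A2 cells with LPS and of 0.06 (SE 0.19) in shNT cells with LPS, a difference of 1.41 (SE 0.30, unadjusted p = 0.000248). ENSG00000228477 had 0.81 (SE 0.11) and -0.03 (SE 0.12), a difference of 0.86 (SE 0.16, unadjusted p = 6.50e-05). Both are pseudogenes, and neither difference passed adjustment over all genes, where the smallest adjusted p of the 35 was 0.999983. For DAPK1 the values were 0.86 (SE 0.12) and 0.29 (SE 0.11), and the difference of 0.59 (SE 0.16) had an unadjusted p = 0.00156. NR4A3 had 0.65 (SE 0.12) against 0.23 (SE 0.08) in shNT cells, a difference of 0.44 (SE 0.15, unadjusted p = 0.0109). The differences of DAPK1 and NR4A3 did not pass adjustment either, and 2.58% of all genes had an unadjusted p under 0.05. CYP4F33P, ENSG00000228477 and DAPK1 were also chosen on their change in shNR4A2 cells, which enters the difference, so that nothing is read from their p.

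Between the LPS-stimulated and the unstimulated state of the same line the 35 genes differed among themselves. POLR1A, SLC6A6, CYTH2, SLC4A7 and SLC16A9 had estimates in the same direction and of like order in both states. POLR1A, for example, had a log2 fold change of 0.76 (SE 0.11) with LPS and 0.64 (SE 0.13) without, from 73.7, 58.1 and 62.6 CPM to 96.3, 120.0 and 86.5 CPM, and SLC6A6 had -0.91 (SE 0.14) and -0.69 (SE 0.15). FRY, SIK3, MCTP1, IQGAP2, ANO5 and IKZF1, by contrast, had estimates near 0 or below it without LPS. SIK3 had 0.67 (SE 0.11) with LPS and -0.18 (SE 0.12) without, where it stood at 53.3, 51.9 and 45.0 CPM and then 42.3, 44.2 and 45.3 CPM, and its difference of 0.85 (SE 0.15) had the smallest unadjusted p of the 35 genes, 3.15e-05, and an adjusted p of 0.279. FRY had 0.71 (SE 0.10) and 0.05 (SE 0.13), a difference of 0.66 (SE 0.17, unadjusted p = 0.000932). Of the 35 differences 25 had an unadjusted p under 0.05, against 5.1% of all genes, but the 35 were chosen on their change with LPS, so that nothing is read from that count. Without 5% CO2 + LPS replicate 3, 24 genes were called in this test.

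**Figure D5:**
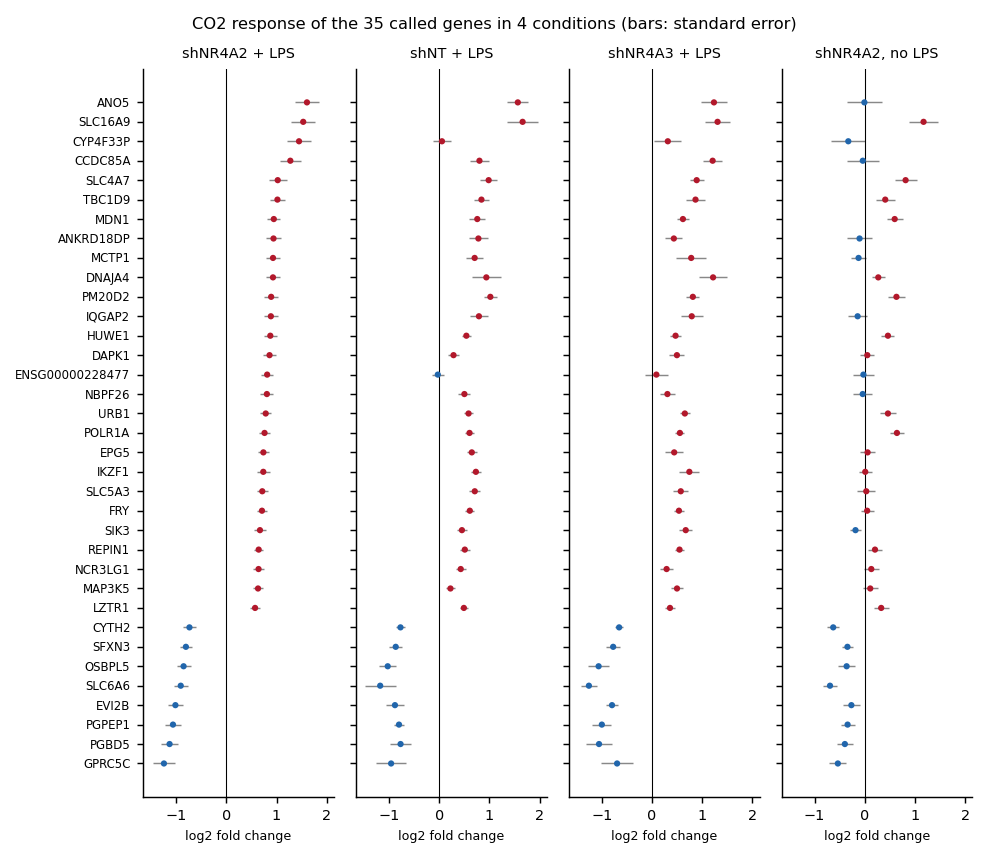
Log2 fold change of 10% against 5% CO2 (x axis; points, with bars for 1 standard error) of the 35 genes called in LPS-stimulated shNR4A2 cells, in those cells, in shNT and shNR4A3 cells with LPS and in shNR4A2 cells without LPS; red is above 0 and blue below. CYP4F33P and ENSG00000228477 lie near 0 in shNT cells (0.06 and -0.03), and FRY, SIK3 and ANO5 lie near 0 or below without LPS (0.05, -0.18 and -0.01).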

How the data were processed

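RNA was measured as polyA RNA-seq in 36 libraries, 3 in each of 12 conditions taken from the sample labels. Per the file headers, the labels and the study's methods, the authors used Trimmomatic 0.36 for trimming and STAR 2.5.2b for alignment to GRCh38, and the deposited values are raw whole-number counts per gene from featureCounts (Subread 1.5.2). Which annotation release and strand setting were used, and whether reads or fragments were counted, is not given in the sources used here. Symbols were matched by gene ID for 56410 of 57500 genes (98.1%).

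From the deposited counts, 17720 genes passed edgeR's filterByExpr (minimum count 10, minimum total 15) over all 36 libraries. Each comparison used its own libraries, TMM scaling and edgeR's robust quasi-likelihood test (edgeR 4.0.16, R 4.3.3) with Benjamini-Hochberg adjustment, and an adjusted p under 0.05 is called. SE is the log2 fold change over the square root of F. Differences of responses were interactions over 12 libraries. The study's methods name DESeq2, which (1.42.0) was an alternative beside RLE or total-count scaling, other filters, other libraries in the fit, a replicate block and leaving out each library. The scripts were tested on simulated data. CPM values use TMM factors over 36 libraries; TPM uses the gene lengths in the files. Depth was 17361839 to 21028486 counts in the 6 libraries compared.

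The members, gene lists and tests were chosen with earlier results of these data known. Named genes are every called gene, the NR4A genes, called members and the 4 smallest p of each list, every mitochondrially encoded gene, the genes the study names, and the 10 genes just outside the threshold; TNF and IL1B were named after their values were seen.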

Additional observations from a re-analysis of the deposited data

How the results depend on the processing

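The number of genes called, 35 as reported, was 600 with DESeq2, 1112 with no filter, 1009 in 1 fit to all 36 libraries, 238 in 1 fit to the 12 shNR4A2 libraries, and 0 with scaling by library size only or at an adjusted p of 0.01 (2748 genes had an unadjusted p under 0.05 with that scaling). It stayed within 1.5 times the reported number with RLE scaling (35), a filter of 1 CPM (26), a filter within the 6 libraries (32) and TMM scaling without mitochondrial genes (35). Leaving out 1 library gave 0 to 1122 genes in edgeR and, in alternatives chosen after seeing the data, 100 to 1235 with DESeq2 and 85 to 1922 in the fit to all other libraries. None of the 35 genes changed sign under any of these settings. The cause of the spread in the number called was not tested.

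With the replicate number as a block, 619 genes were called by edgeR and 582 by DESeq2 (an alternative chosen after seeing the data), each including the 35. Deviations of same-numbered libraries from their group means correlated at 0.239, 0.057 and 0.116 across all genes tested and at 0.626, 0.0647 and 0.144 across the genes whose mean reached 10 CPM. The second value was under 0.1 in both, and replicate 2 did not correlate best with its own number. Across all genes 10% CO2 replicate 2 correlated at 0.057 with its own number and at 0.0617 with 5% CO2 replicate 3. Replicate 1 at 10% CO2 did correlate best with its own number, against -0.213 and -0.313 with the others in the genes of 10 CPM. The main test did not treat the numbers as pairs, so an effect shared by libraries of 1 experiment was not modelled there.

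Tests of the difference against shNT cells called 2 genes with no filter. Between LPS-stimulated and unstimulated cells they called 13 with DESeq2, 71 with no filter, 4 with the replicate block, 1 in the fit to all 36 libraries and 0 to 24 with 1 library left out; other alternatives gave 0, as did every alternative against shNR4A3 cells. The depletion of NR4A2 held throughout.

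Medians of all genes stayed within 0.012 of 0 under each scaling; those of acid-base and lysosomal genes, near 0, changed sign. With 1 library left out, list medians ran from -0.084 to 0.37 for interferon genes (0.071 with all libraries), 0.0027 to 0.43 for chemokines, 0.032 to 0.38 for cytokines, 0.020 to 0.23 for NF-kB genes, -0.41 to -0.093 for immediate-early genes, -0.44 to -0.18 for haematopoietic factors, 0.029 to 0.197 for ATF4 targets, 0.080 to 0.22 for zinc genes, 0.115 to 0.22 for heat shock proteins and 0.41 to 0.83 for mitochondrially encoded proteins. The lowest values of chemokines, cytokines, NF-kB genes and heat shock proteins came without 5% CO2 replicate 2. With 3 libraries a group, the smallest log2 fold change that edgeR called was 0.57 in size, and smaller changes may have been missed.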

Other observations

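Some lists enter no statement above, and their counts are at an unadjusted p under 0.05, which 7.78% of all genes tested passed upwards and 8.57% downwards. Of 28 ATF4 targets and proline, serine and one-carbon enzymes 8 were higher and 0 lower (28.6% and 0%, median 0.14). CHAC1, a glutathione-degrading ATF4 target, had 31.4, 22.5 and 34.9 CPM at 5% CO2 and 49.3, 38.5 and 46.7 CPM at 10% CO2 (log2 fold change 0.60, SE 0.16, adjusted p = 0.111), and PYCR1, the last enzyme of proline synthesis, had 46.8, 43.4 and 49.4 CPM and then 60.3, 52.9 and 57.5 CPM (log2 fold change 0.29, SE 0.10, adjusted p = 0.19). Of 42 genes of calcium pumps, channels and calmodulin kinases 5 were higher and 11 lower (11.9% and 26.2%). ITPR1, a calcium release channel of the endoplasmic reticulum, had a log2 fold change of 0.62 (SE 0.11, adjusted p = 0.0586), and CAMK2G, a calmodulin-dependent kinase, one of -0.57 (SE 0.14, adjusted p = 0.0949). Of 20 SR splicing factors and their kinases 4 were higher and 3 lower (20% and 15%), of 21 NAD genes 0 and 3, and of 16 prostaglandin and leukotriene genes 2 and 2.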
